A study of Homo sapiens with 7 samples.

Results

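The genes of the DNA replication machinery were followed in A549 cells, an epithelial line from a human lung adenocarcinoma. They were chosen by name, as 45 genes that license, unwind, prime and copy DNA or supply its nucleotides, and 43 of them were rows of the deposited table of 14535 genes. PRIM2 and RPA3 were not analysed here. All 43 passed the filter on low counts, by which 11230 genes were tested. The comparison was between 3 libraries of cells given doxorubicin at 100 nM for 24 h (replicates 1 to 3) and 4 libraries of cells under cyclic stretch (15% elongation, 15 cycles per min, also 24 h; replicates 4 to 7). In both groups the cells were stained for β-galactosidase, a senescence marker, after 6 days, and the positive cells were sorted before RNA was taken. Both groups are therefore a selected fraction of 1 cancer line, and no untreated or unsorted cells were analysed here, so "higher in stretch" is the same statement as "lower in doxorubicin". Whether libraries of a group are separate cultures is not stated, and the spread that p-values rest on may therefore be technical.

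Replication starts at origins bound by the origin recognition complex, onto which CDC6 and CDT1 load the ring-shaped MCM helicase in G1. CDC45 and the GINS complex then switch the helicase on, and polymerases alpha, delta and epsilon copy DNA with the sliding clamp PCNA. Most of these genes are transcribed under E2F factors, which the RB family holds back in senescent cells, and their transcripts are used as a sign of cells in or near S phase. Doxorubicin traps topoisomerase II on DNA and breaks it. In bulk RNA, fewer replicating cells and less transcript in each cell cannot be told apart.

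Depth differed between the groups, with 2611766 to 4644650 counts per doxorubicin library and 5636494 to 7419798 per stretch library. Library sizes were scaled by TMM factors, of which doxorubicin library 2 had the lowest (0.443) and stretch library 4 the highest (1.33), and levels below are CPM, counts scaled to a common library size. One gene, the translation factor EIF4A2, took between 1.67% and 2.87% of the counts of a stretch library, but 16.1%, 30.6% and 10.8% of those of doxorubicin libraries 1, 2 and 3. A level of 3 counts was 1.19, 2.59 and 0.567 CPM across doxorubicin libraries 1 to 3 and at most 0.401 CPM in stretch. At 3 or fewer counts stood 2 of the 43 genes in doxorubicin library 1, 8 in library 2 and 0 in every other library. Across all tested genes doxorubicin library 2 had the lowest correlations with stretch, at 0.724 to 0.769 (Pearson, log-CPM across genes). It correlated with doxorubicin library 1 at 0.884 and with doxorubicin library 3 at 0.754. Doxorubicin library 1 correlated with stretch at 0.847 to 0.879. Doxorubicin library 3 correlated with stretch at 0.915 to 0.941 and with doxorubicin library 1 at 0.882, so it lay nearer to stretch than to its own group. The 6 epithelial markers EPCAM, CDH1, KRT7, KRT8, KRT18 and KRT19 together reached 2053 to 2394 CPM in stretch and 3281 to 6767 CPM in doxorubicin, though EPCAM went the other way, at 0.865 to 4.54 CPM in doxorubicin against 10.2 to 14.6 CPM in stretch. The 4 measured fibroblast markers together stood at 7.35 to 10.4 CPM in stretch and 9.26 to 18.2 CPM in doxorubicin, and the endothelial CDH5 at 0 in every doxorubicin library and at most 0.963 CPM in stretch. CD14, CD68 and LYZ, the 3 measured leukocyte markers, summed to 57.5 to 61.0 CPM in stretch and 100.2 to 139 CPM in doxorubicin, of which the lysosomal CD68 gave 46.7 to 104 CPM. Their part in the results was not tested.

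Promoters of 5 genes are shown because these genes took different courses among the doxorubicin libraries: CDC6 and PCNA were low in libraries 1 and 2, CDT1 and GINS2 were highest in library 2, and RPA1 was high in both, with TMM scaling. Each stretch runs 5′ to 3′ on the gene's strand, from 250 bases before to 50 bases after the RefSeq start (GRCh38.p14), and capitals mark a match to an E2F word. CDC6 lies at chr17:40287629-40287928 (plus strand), PCNA at chr20:5126573-5126872 (minus), CDT1 at chr16:88803539-88803838 (plus), GINS2 at chr16:85688905-85689204 (minus) and RPA1 at chr17:1829755-1830054 (plus).
CDC6: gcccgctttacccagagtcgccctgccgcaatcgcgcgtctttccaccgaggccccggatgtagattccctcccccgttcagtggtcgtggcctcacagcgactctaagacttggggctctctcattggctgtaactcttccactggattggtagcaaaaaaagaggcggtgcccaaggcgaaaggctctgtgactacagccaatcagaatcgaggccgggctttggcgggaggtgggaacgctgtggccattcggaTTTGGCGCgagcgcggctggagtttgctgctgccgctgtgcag
PCNA: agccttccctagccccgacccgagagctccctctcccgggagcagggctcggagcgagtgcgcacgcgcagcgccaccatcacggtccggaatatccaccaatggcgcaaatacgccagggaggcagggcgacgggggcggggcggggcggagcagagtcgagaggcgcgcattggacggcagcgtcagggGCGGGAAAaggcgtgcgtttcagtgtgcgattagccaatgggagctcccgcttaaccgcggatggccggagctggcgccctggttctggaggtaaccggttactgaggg
CDT1: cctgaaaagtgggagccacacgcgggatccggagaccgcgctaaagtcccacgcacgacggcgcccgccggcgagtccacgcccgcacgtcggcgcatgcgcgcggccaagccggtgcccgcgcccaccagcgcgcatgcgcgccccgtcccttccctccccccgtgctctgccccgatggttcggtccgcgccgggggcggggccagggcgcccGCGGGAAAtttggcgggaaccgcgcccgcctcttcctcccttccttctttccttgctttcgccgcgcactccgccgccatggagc
GINS2: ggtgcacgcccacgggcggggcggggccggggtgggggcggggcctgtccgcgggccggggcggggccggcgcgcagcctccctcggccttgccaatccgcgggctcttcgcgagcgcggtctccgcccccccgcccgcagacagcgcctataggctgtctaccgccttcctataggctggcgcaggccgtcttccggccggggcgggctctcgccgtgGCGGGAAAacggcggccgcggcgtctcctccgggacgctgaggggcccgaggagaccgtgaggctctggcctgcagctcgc
RPA1: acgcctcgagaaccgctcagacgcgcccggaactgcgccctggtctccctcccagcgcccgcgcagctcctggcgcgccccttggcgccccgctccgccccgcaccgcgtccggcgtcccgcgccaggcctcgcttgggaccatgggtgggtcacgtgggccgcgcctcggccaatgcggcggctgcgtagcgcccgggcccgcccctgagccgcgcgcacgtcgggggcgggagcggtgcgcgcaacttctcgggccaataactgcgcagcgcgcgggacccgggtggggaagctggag
The words searched, on both strands and with overlapping matches counted, were TTTCCCGC, TTTCGCGC, TTTGCCGC and TTTGGCGC. Of the 39 genes of the list with a promoter in the RefSeq table, 19 (48.7%) had at least 1 match at any of their starts, against 6.67% of 8351 tested genes with a promoter. By single promoter, the share was 3.31% of 35116 of the same length. In CDC6 the match began 7 bases downstream of the start, and in PCNA, CDT1 and GINS2 it began 59, 35 and 31 bases upstream, on the opposite strand. PCNA has another start in the table, at chr20:5119909-5120208, whose promoter is not shown and held no match. RPA1 had no match to these letters in this window. A CCAAT box, in either direction, stood in 24 of the 39 genes (61.5%) and in 43.4% of the tested genes. The CHR words TTTGAA and TTCGAA stood in 2 of the 39 (5.13%) and in 15.5% of the tested genes. Matches are matches of letters and were not tied to binding here.

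No replication gene differed between stretch and doxorubicin by edgeR (quasi-likelihood F-test, p-values adjusted by Benjamini and Hochberg's method over 11230 genes), where 2.32% of genes passed an adjusted p of 0.05. An unadjusted p under 0.05 was reached by 3 of the 43, ORC4, RPA1 and CDT1, and their adjusted p was 0.172, 0.194 and 0.201 (edgeR). DESeq2, which called 3.09% of the genes it tested higher in stretch and 6.94% higher in doxorubicin, also called 0 of the 43 (3 at an unadjusted p under 0.05), and so did limma-voom (2). The shares of all genes at an unadjusted p under 0.05 were 23.2% by edgeR, 25.4% by DESeq2 and 22.1% by limma-voom, which called 1.66% after adjustment. The median log2 fold change of the 43 (stretch minus doxorubicin) was 0.07, beside 0.02 over all genes tested, with 25 genes on the stretch side and 18 on the doxorubicin side. With library totals as the only scaling the median over all genes moved to 0.71 and that of the 43 to 0.66. Summed over the 43 genes, the doxorubicin libraries held 1638 ± 391 CPM (SD, n = 3), and the stretch libraries 1588 ± 298 CPM (SD, n = 4). These sums, with TMM scaling, differed by less than either group's SD. They depended on the scaling: as a share of library totals the 43 genes made up 0.130% (SD 0.083) in doxorubicin and 0.204% (SD 0.044) in stretch. A missed threshold does not show that the groups were equal: the standard errors ran from 0.27 to 0.81 on the log2 scale.

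**Figure D1:**
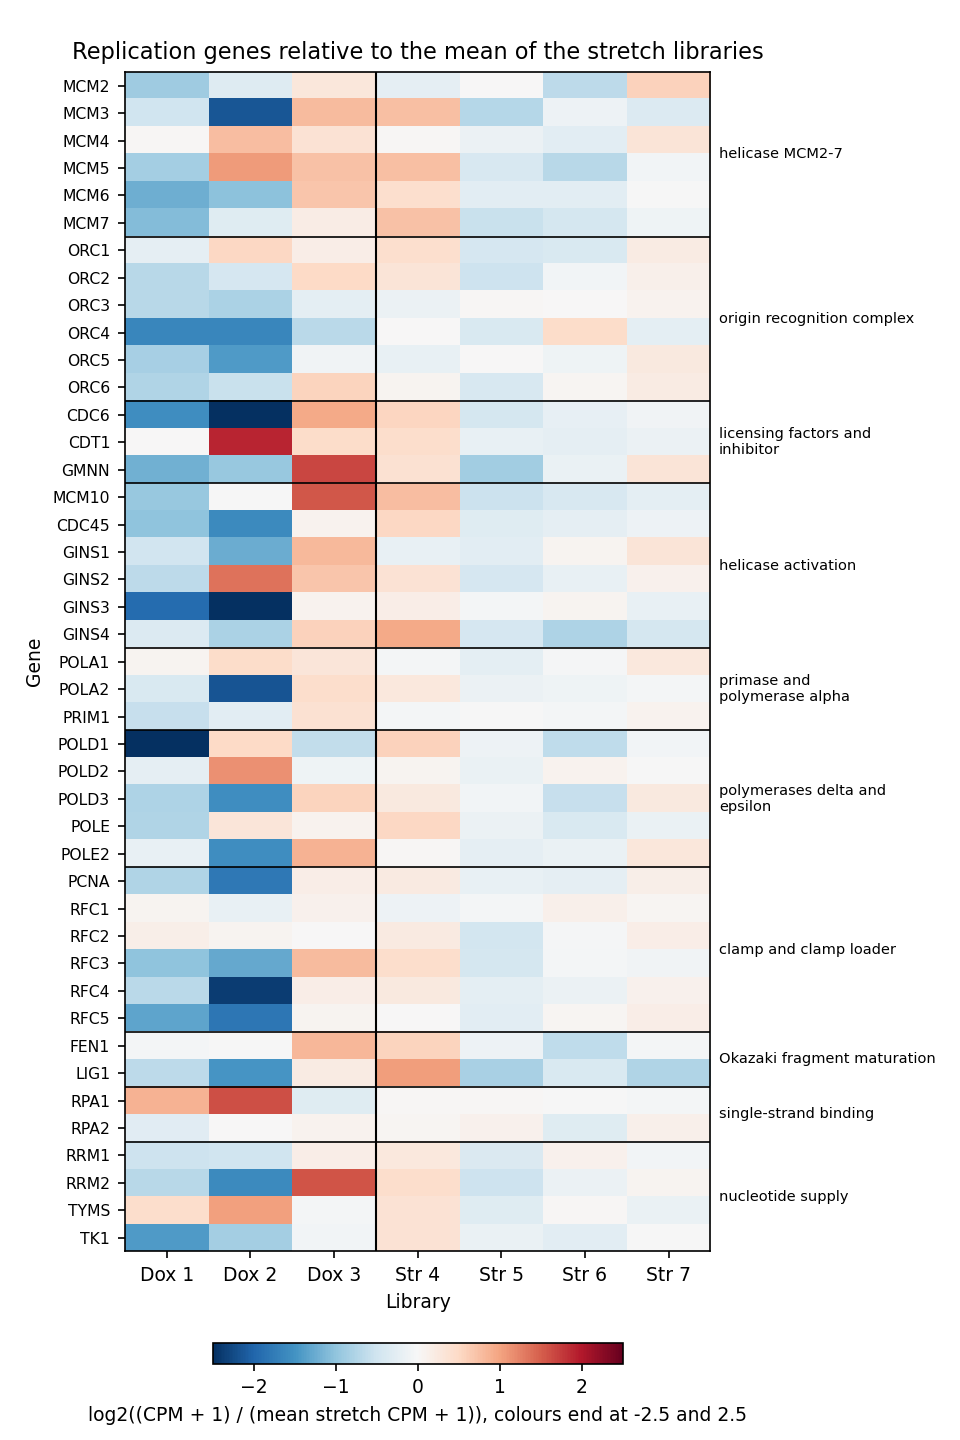
Colour shows the level of each of the 43 genes (rows, grouped by role) in each library (columns), as log2 of CPM + 1 over the mean stretch CPM + 1. Doxorubicin libraries 1 and 2 are mostly blue (lower) with red exceptions such as RPA1, doxorubicin library 3 is mostly red, and stretch library 4 is the reddest of its group.

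The doxorubicin libraries fell on different sides of the stretch range. In doxorubicin library 1, 29 of the 43 genes lay below all 4 stretch libraries and 2 lay above, against 35.6% and 35.3% of all tested genes. In doxorubicin library 2, 25 lay below and 9 above, against 48.0% and 35.3%. Doxorubicin library 3 was different, with 3 genes below, 21 within and 19 above the stretch range, against 28.3% below and 28.4% above among all tested genes. Library 3 had the highest level of the doxorubicin group for 31 of the 43 genes, a count that was not set against all tested genes. The median log2 level relative to the stretch mean was -0.69, -0.58 and 0.37 in doxorubicin libraries 1, 2 and 3. Scaling by library totals alone left library 3 above the stretch range for 13 genes and below it for 6 (30.2% and 14.0%, against 19.1% and 39.2% of all tested genes), and put libraries 1 and 2 below it for 42 and 39 genes (68.5% and 80.9% of all tested genes).

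**Figure D2:**
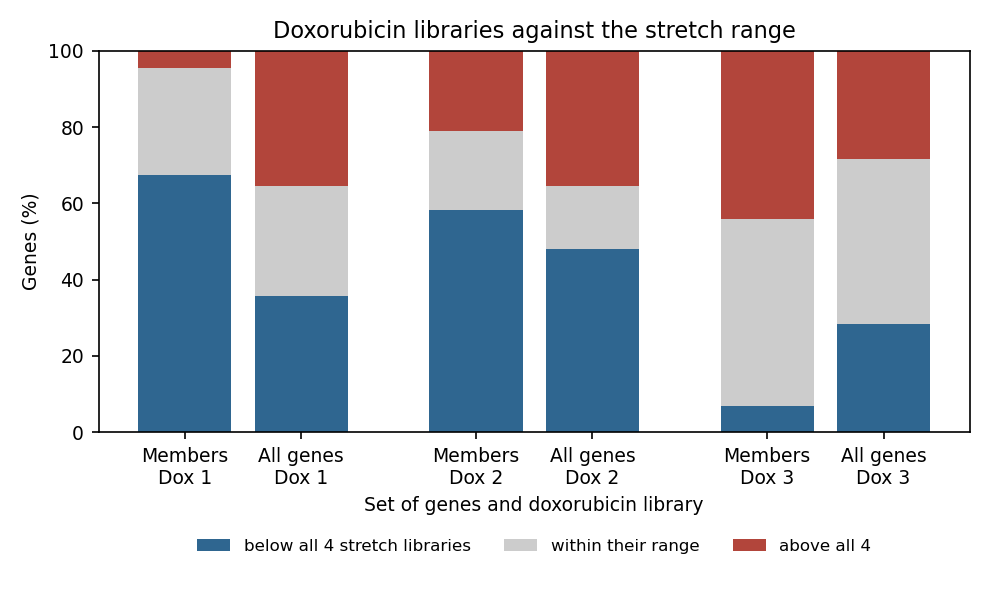
Bars give the percentage of the 43 replication genes (Members) and of all 11230 tested genes that lay below, within or above the range of the 4 stretch libraries, for each doxorubicin library (TMM-scaled CPM). The part above is 4.65%, 20.9% and 44.2% of the replication genes in libraries 1, 2 and 3.

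The 6 subunits of the origin recognition complex, which marks origins, had 5 of 6 log2 fold changes on the stretch side, with a median of 0.31 and none past the threshold. Of these, ORC2 and ORC6 were at 0.06 and turned to the doxorubicin side without doxorubicin library 1 (both -0.20), without library 2 and with a GC correction. ORC4 (chromosome 2, 147930397 to 148021604, GRCh38) had the lowest p of all 43 genes and was scarcely detected. Its levels were 0, 0 and 0.945 CPM in doxorubicin libraries 1, 2 and 3 (0, 0 and 5 counts) and 2.14, 1.39, 3.24 and 1.61 CPM in stretch libraries 4, 5, 6 and 7. The groups did not overlap, but a level of 3 counts in doxorubicin library 2 is above 3 of the 4 stretch levels, so the 0 in that library is within what its depth allows for the stretch level. ORC3 stood at 8.34, 7.78 and 11.9 CPM against 12.8, 14.6, 14.4 and 15.1 CPM in stretch (log2 fold change 0.57, SE 0.32). ORC3 and ORC4 were the only genes of the 43 whose groups did not overlap, both higher in stretch, where 11.5% of all tested genes had that pattern and 9.88% the opposite one. ORC5 stood at 8.34, 5.19 and 14.6 CPM against 13.6, 15.6, 14.5 and 18.6 CPM, so that its doxorubicin library 3 lay within the stretch range. The log2 fold changes of ORC1, the subunit whose level rises before S phase, and of ORC2 and ORC6 lay between -0.18 and 0.06.

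Among the loading factors and their inhibitor, CDC6 and GMNN shared a pattern and CDT1 differed from it. CDC6, the ATPase that recruits the helicase to the origin complex (chromosome 17, 40287633 to 40304657), stood at 2.78, 0 and 20.4 CPM across doxorubicin libraries 1 to 3 and at 15.2, 7.28, 8.65 and 9.47 CPM in stretch libraries 4 to 7. Doxorubicin library 3 was thus the highest of all 7 libraries and libraries 1 and 2 the lowest. CDT1, the partner of CDC6 in loading (chromosome 16, 88803213 to 88809258), stood at 17.5, 67.4 and 24.4 CPM against 23.9, 15.2, 14.8 and 15.6 CPM. Its log2 fold change was -1.03 (SE 0.45), and doxorubicin library 2 alone exceeded every other library by more than the whole stretch range. Without that library the log2 fold change was -0.28. With library totals as the scaling it was -0.07, and library 2, at 29.9 CPM, lay below stretch library 4, at 31.8 CPM. GMNN, which codes geminin, the protein that blocks CDT1 after origins have fired, stood at 1.99, 2.59 and 21.0 CPM against 8.01, 2.78, 5.19 and 7.64 CPM. In doxorubicin library 2, CDC6, GMNN and CDT1 had 0, 3 and 78 counts. The log2 fold changes of CDC6 and GMNN were 0.18 (SE 0.74) and -0.69 (SE 0.69).

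The helicase subunits MCM2 to MCM7 form 1 ring in equal parts. With TMM scaling they took different positions against the stretch range in doxorubicin library 2. MCM2 stood at 4.37, 6.92 and 11.0 CPM across doxorubicin libraries 1 to 3 and at 7.48, 8.99, 5.30 and 13.8 CPM in stretch. MCM7 (chromosome 7, 100092728 to 100101940) stood at 21.8, 38.0 and 54.1 CPM against 79.2, 31.8, 34.6 and 43.8 CPM. In both genes doxorubicin library 1 was the lowest of all 7 and the other doxorubicin libraries lay within the stretch range. MCM4 stood at 95.7, 162 and 120.2 CPM against 95.2, 84.3, 77.8 and 118 CPM, with doxorubicin libraries 2 and 3 above every stretch library. MCM5 showed the same high library 2, at 77.0 CPM against 22.1 to 61.8 CPM in stretch, and 19.9 CPM in doxorubicin library 1. By library totals, doxorubicin library 2 lay below the stretch range for MCM4, at 71.6 CPM against 97.2 to 152 CPM, and within it for MCM5. It also lay below that range for MCM2, MCM3, MCM6 and MCM7, and doxorubicin library 1 lay below it for every subunit. MCM3 and MCM6 were instead low in doxorubicin library 2, at 10.4 and 19.9 CPM against lowest stretch levels of 29.6 and 34.6 CPM, and above all stretch libraries in doxorubicin library 3, at 85.3 and 68.6 CPM. The 6 log2 fold changes ran from -0.52 to 0.31, with SEs of 0.30 to 0.57, and the difference between subunits was not tested.

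**Figure D3:**
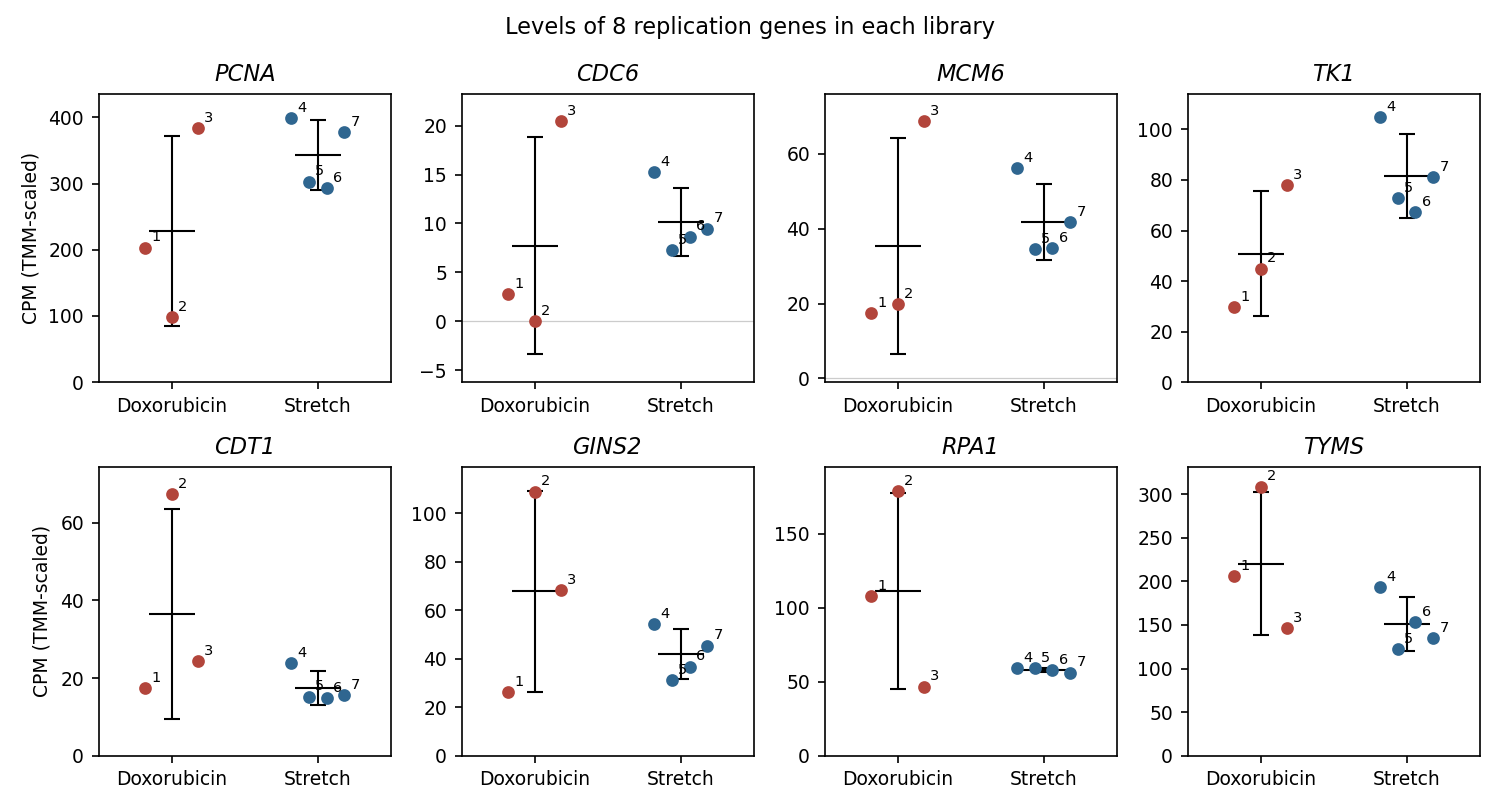
Points are TMM-scaled CPM in single libraries, labelled with the replicate number, for 8 genes. Horizontal bars are group means and whiskers 1 SD (n = 3 doxorubicin, n = 4 stretch). In the upper row doxorubicin libraries 1 and 2 lie below all stretch libraries, and in the lower row library 2 is the highest of all 7, which by library totals holds for RPA1 only.

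Among the factors that activate the helicase, GINS2 lay above the stretch range in doxorubicin library 2 and GINS1 and GINS3 below it. GINS4 stood at the edge of its range there, at 4.32 CPM against a lowest stretch level of 4.43 CPM. The GINS complex joins GINS1, GINS2, GINS3 and GINS4 with CDC45 on the helicase. GINS2 (chromosome 16, 85676198 to 85690073) stood at 26.2, 109 and 68.2 CPM across doxorubicin libraries 1 to 3 and at 54.3, 31.0, 36.8 and 45.4 CPM in stretch. GINS3 stood at 1.59, 0 and 9.45 CPM against 10.01, 8.56, 9.30 and 7.64 CPM. In doxorubicin library 2, GINS1, GINS2, GINS3 and GINS4 had 6, 126, 0 and 5 counts. In library 1 GINS2 was below the stretch range and in library 3 above it, as GINS1 was. Scaled by library totals alone, GINS2 in library 2 lay within the stretch range, at 48.2 CPM against 39.1 to 72.2 CPM, and the difference between subunits was not tested. CDC45 stood at 4.37, 2.59 and 10.4 CPM against 14.4, 7.70, 8.22 and 8.82 CPM, and was low in doxorubicin libraries 1 and 2 as GINS3 was. MCM10, which helps the activated helicase to unwind DNA, stood at 78.6 CPM in doxorubicin library 3 against 17.8 to 45.5 CPM in stretch, and at 13.1 and 25.9 CPM in libraries 1 and 2.

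Clamp and clamp loader genes differed in how far the doxorubicin libraries lay apart. PCNA, the sliding clamp (chromosome 20, 5114953 to 5126626), reached 203, 98.6 and 383 CPM across doxorubicin libraries 1 to 3, with 512, 114 and 2028 counts, and at 398, 303, 293 and 377 CPM in stretch libraries 4 to 7. Doxorubicin libraries 1 and 2 lay below every stretch library and library 3 within their range (log2 fold change 0.58, SE 0.42). RFC3, RFC4 and RFC5, small subunits of the loader that opens the clamp, had the same low levels in doxorubicin libraries 1 and 2, at 9.53 and 7.78, 10.7 and 2.59, and 0.397 and 0 CPM, against lowest stretch levels of 14.6, 14.7 and 1.93 CPM. With TMM scaling RFC1, the large subunit, and RFC2 did not share this. They stood at 22.5 to 27.6 CPM and 15.9 to 17.5 CPM over the doxorubicin libraries and at 23.2 to 28.0 CPM and 11.1 to 18.6 CPM over stretch. Their log2 fold changes were then -0.01 (SE 0.27) and -0.08 (SE 0.31). By library totals both were low in doxorubicin libraries 1 and 2 too. RFC1 stood at 19.7 and 9.96 CPM there and RFC2 at 12.7 and 7.27 CPM, against lowest stretch levels of 30.9 and 14.0 CPM.

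Subunits of 1 polymerase also lay on unlike sides of the stretch range. POLD2, the second subunit of polymerase delta, stood at 284 CPM in doxorubicin library 2 against 114 to 136 CPM in stretch, while POLD3 stood at 5.19 CPM there against 11.1 to 20.4 CPM. By library totals POLD2 in that library turned to the other side of the stretch range, at 126 CPM against 144 to 180.1 CPM. POLD1, the catalytic subunit, was lowest in doxorubicin library 1, at 1.59 CPM against 9.62 to 23.9 CPM in stretch, and stood at 22.5 CPM in library 2. For polymerase epsilon, POLE lay within the stretch range in doxorubicin library 2, at 25.1 CPM (stretch 15.2 to 29.2), and POLE2 stood at 0 CPM (stretch 1.498 to 2.58). A level of 3 counts in that library, 2.59 CPM, is above every stretch level of POLE2. The 0 of POLE2 is thus within what its depth allows. POLA1 and POLA2, subunits of polymerase alpha, had log2 fold changes of -0.29 and 0.29, and PRIM1, the catalytic primase, 0.08. FEN1, which trims the flaps of Okazaki fragments, stood at 14.3, 14.7 and 26.8 CPM against 9.19 to 22.03 CPM. LIG1, which seals them, stood at 34.2, 19.0 and 63.3 CPM against 114, 30.7, 42.1 and 32.3 CPM, where stretch library 4 set the mean.

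RPA1 behaved unlike nearly all others. It codes the large subunit of the complex that coats single-stranded DNA, in repair as well as in replication (chromosome 17, 1829702 to 1900082). Its levels were 108, 179 and 46.7 CPM across doxorubicin libraries 1 to 3 and 59.1, 59.1, 57.9 and 56.2 CPM in stretch. Doxorubicin libraries 1 and 2 lay above the narrow stretch range and library 3 below it (log2 fold change -0.92, SE 0.40). This position depended on the scaling: scaled by library totals alone, the same libraries stood at 78.5, 79.3 and 53.2 CPM against 72.1 to 78.6 CPM in stretch, and the log2 fold change was 0.08. RPA2, the middle subunit, had a log2 fold change of 0.05 (SE 0.27). TYMS, which makes thymidylate and is the target of fluorouracil, was the only other gene above the stretch range in both doxorubicin libraries 1 and 2, at 206, 309 and 146 CPM against 193, 122, 153 and 135 CPM. By library totals its log2 fold change was 0.36, against -0.54 with TMM.

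The other genes of nucleotide supply were low in doxorubicin libraries 1 and 2. TK1, the salvage kinase for thymidine, stood at 29.8, 45.0 and 77.9 CPM across doxorubicin libraries 1 to 3 and at 105, 72.9, 67.4 and 81.0 CPM in stretch. RRM2, the regulated subunit of ribonucleotide reductase, stood at 15.5, 7.78 and 77.9 CPM against 35.0, 17.5, 23.0 and 26.8 CPM. Doxorubicin library 3 thus held more than double the highest RRM2 level of stretch, and libraries 1 and 2 less than the lowest. RRM1, its large partner, varied less, at 12.7, 12.97 and 21.0 CPM against 14.3 to 22.7 CPM. The log2 fold changes of TK1, RRM2 and RRM1 were 0.67, -0.46 and 0.24.

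The number of genes that passed changed with doxorubicin library 3. Without it, edgeR called 11 of the 43 genes higher in stretch and 1, RPA1, higher in doxorubicin, where it called 16.0% and 16.2% of 11618 tested genes. The 11 were CDC6, CDC45, GINS3, MCM6, ORC4, ORC5, PCNA, RFC3, RFC4, RFC5 and TK1, which is 25.6% of the 43, and RPA1 is 2.33%. The log2 fold changes of PCNA, MCM6, TK1 and CDC6 were 1.21 (SE 0.35), 1.20 (SE 0.34), 1.18 (SE 0.33) and 2.51 (SE 0.69), and that of RPA1 was -1.26 (SE 0.28). No fold is given for ORC4, at 0 counts in both remaining doxorubicin libraries, or for RFC5, at 1 and 0 counts. The median of the 43 was 0.75, beside 0.15 over all genes. With doxorubicin library 3 set against stretch by itself, whose spread is then taken to equal that of stretch, 34 of the 43 lay on the doxorubicin side and the median was -0.29, beside 0.03 over all genes. In that setting 0 of the 43 passed by edgeR, and 0.802% of 12344 genes did. At an unadjusted p under 0.05 stood 8 of the 43 (18.6%), near the 16.8% of all genes. The lowest adjusted p among the 43 by edgeR was 0.0634, for RRM2 (log2 fold change -1.59, SE 0.33), and the log2 fold changes of GMNN and MCM10 were -1.82 and -1.57. Weighting libraries by quality in limma-voom called 11 genes higher in stretch and 2, RPA1 and TYMS, higher in doxorubicin, beside 23.2% and 23.8% of all genes. Those weights were 3.87 for doxorubicin library 1 and 0.258 and 0.204 for libraries 2 and 3. In both this and the setting without library 3, 10 genes were called, a count that was not set against all tested genes. Library 3 had little or no weight in either setting, so the settings are not independent.

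**Figure D4:**
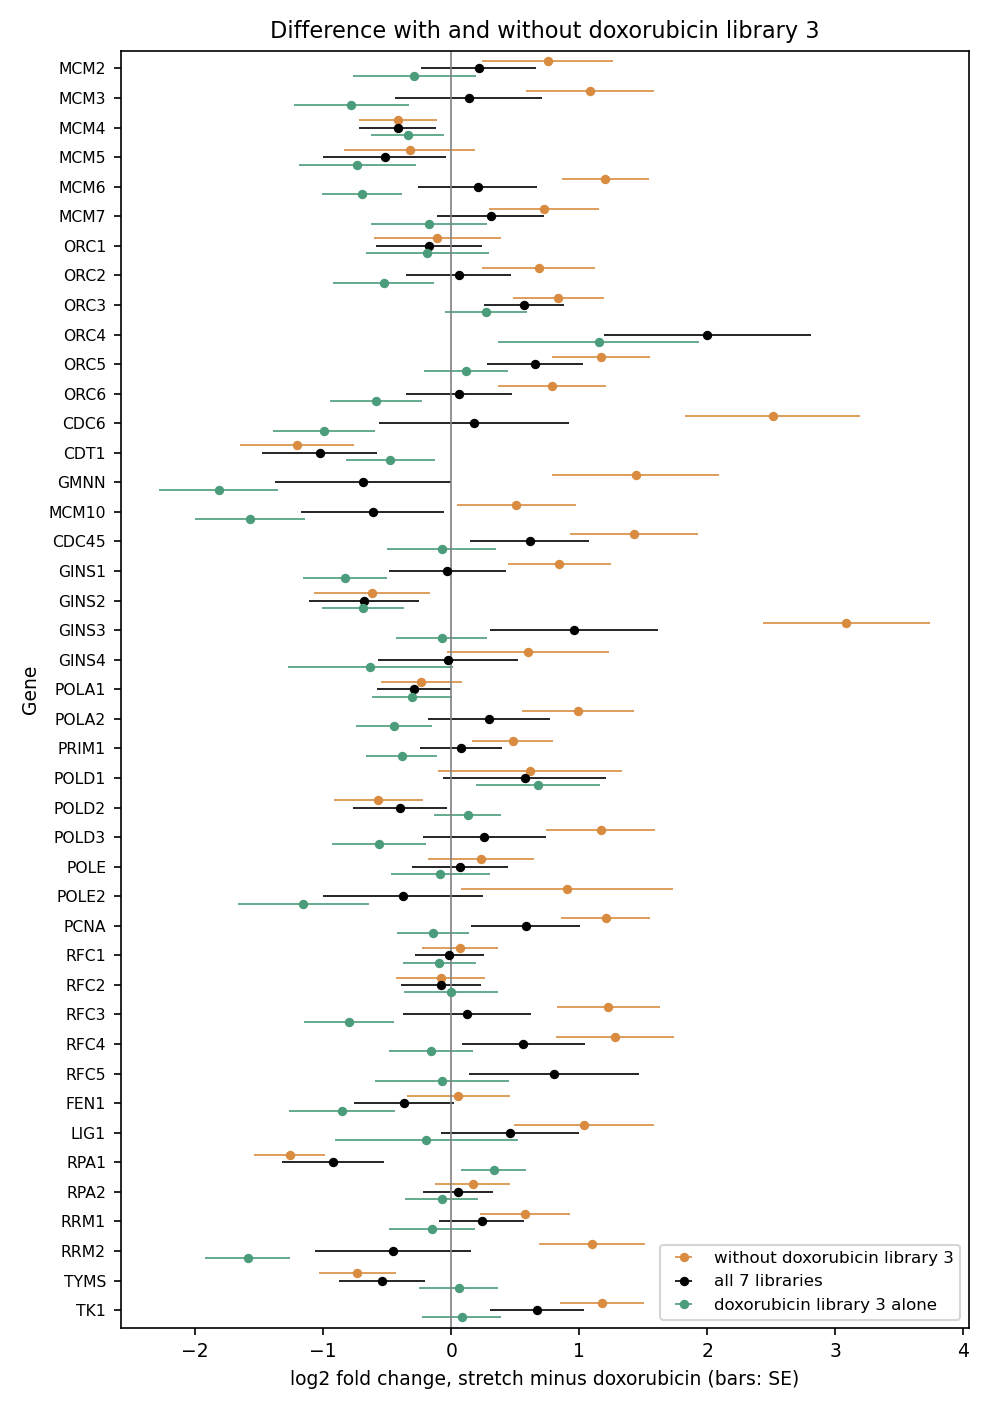
Log2 fold changes (stretch minus doxorubicin) with standard errors for each gene, with all libraries (black), without doxorubicin library 3 (orange) and with doxorubicin library 3 by itself (green). Points right of 0 are higher in stretch. Orange lies right of green for most genes, with RPA1, TYMS, CDT1, POLD2, MCM4, RFC2 and POLD1 as the exceptions, and ORC4 and RFC5 have no orange point.

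Within the stretch group, library 4 was the highest of the 4 for 28 of the 43 genes (65.1%), against 33.4% of all tested genes. Library 5 was the highest for 0 and the lowest for 25 (58.1%), against 19.9% and 17.6% of all tested genes. By library totals library 4 was the highest for 30 (69.8%), against 38.1% of all tested genes. Summed over the 43 genes with TMM scaling, stretch libraries 4, 5, 6 and 7 held 1999, 1334, 1407 and 1611 CPM. Doxorubicin libraries 1, 2 and 3 held 1212, 1722 and 1980 CPM, though by library totals their shares were 0.0884%, 0.0763% and 0.226%. Those of stretch libraries 4 to 7 were 0.266%, 0.168%, 0.176% and 0.207%. PCNA gave 203, 98.6 and 383 CPM of the doxorubicin sums.

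Transcript GC content moved with library in these genes. Over the 43, Spearman's correlation of GC content with the level relative to the stretch mean was 0.38 in doxorubicin library 2, 0.11 in library 1 and -0.12 in library 3, and 0.43 and -0.49 in stretch libraries 4 and 6. Over all genes tested it was 0.30, 0.18, -0.04, 0.18 and -0.20 in the same order. The points share their library and are described with no test. CDT1 and POLD2, high in doxorubicin library 2, have transcripts of 64.9% and 59.1% GC, against a median of 47.9% over the 43, while RPA1 has 48.2% and GINS2 49.1%. With a GC correction per library, an alternative chosen after seeing the data, edgeR called 0 of the 43 and the median was -0.06, also -0.06 over all genes.

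Beyond the list, 50 of 52 further genes of replication and its control were rows of the table, 1 of them, PCLAF, under its older symbol KIAA0101, and all 50 were tested. SAMHD1, which degrades the nucleotides that replication uses and is also induced by interferon, was the only one that passed, higher in doxorubicin (edgeR adjusted p = 0.0431, log2 fold change -2.04, SE 0.44). It stood at 92.1, 69.2 and 27.0 CPM across doxorubicin libraries 1 to 3 and at 7.88, 18.5, 16.4 and 17.9 CPM in stretch, so that the groups did not overlap. Of 17 alternatives, 7 kept this call and 10 lost it, among them leaving out any single library other than doxorubicin library 3 (edgeR adjusted p of 0.193 and 0.0542 without doxorubicin libraries 1 and 2, and 0.0897 to 0.167 without single stretch libraries). Over the alternatives the adjusted p was 5.00e-06 to 0.351 and the log2 fold change -2.38 to -0.81. The 50 lay 23 on the stretch and 27 on the doxorubicin side, with a median of -0.09, and 12 had an unadjusted p under 0.05, where 23.2% of all tested genes did.

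Some genes that drive entry into S phase, named for their low p, were among those nearest to the threshold, on the doxorubicin side. Others of that role varied, with log2 fold changes of 0.65 for DBF4, -0.31 for CDK2 and -1.58 for E2F1. CCNE1, which codes cyclin E1, stood at 20.6, 18.2 and 17.8 CPM in the doxorubicin libraries, against 8.28, 9.09, 8.11 and 9.68 CPM with stretch (log2 fold change -1.10, SE 0.29, edgeR adjusted p = 0.0663). With TMM scaling all 3 doxorubicin libraries lay above the stretch range. By library totals doxorubicin library 2, with 21 counts of CCNE1, did not. TFDP1, the partner that E2F factors need to bind DNA, stood at 134, 408 and 80.5 CPM against 57.3, 61.7, 67.1 and 49.7 CPM (edgeR adjusted p = 0.0687). Its log2 fold change was -1.81 (SE 0.48), and -0.85 (SE 0.28) without doxorubicin library 2. E2F3 stood at 19.5, 23.3 and 24.4 CPM against 7.61, 10.7, 13.4 and 12.7 CPM (edgeR adjusted p = 0.102). E2F2 was weakly expressed, at 4.37, 0 and 11.2 CPM against 1.74, 0.214, 0.216 and 0.108 CPM (edgeR adjusted p = 0.0741). On the stretch side MCM9, a helicase of recombination rather than of the replication ring, stood at 3.97, 2.59 and 5.29 CPM against 9.48, 7.92, 11.9 and 11.5 CPM (edgeR adjusted p = 0.0912). By library totals the log2 fold changes of CCNE1, TFDP1 and E2F3 were -0.37 (SE 0.40), -0.71 (SE 0.32) and -0.31 (SE 0.43). They were on the same side as with TMM but smaller, and their edgeR adjusted p was 0.530, 0.221 and 0.626.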

How the data were processed

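Gene expression was measured in 7 libraries, made with an Ion AmpliSeq human transcriptome kit per the labels' protocols, which counts PCR amplicons. Floors given in counts therefore cover counting error only, while standard errors also take in the spread between libraries. The authors deposited estimated counts per gene as whole numbers, taken here as rounded. Per the submitters' processing notes, fastp 0.20.1, Salmon 1.9 and GRCh38 were used, with no role or order named, and the annotation is not given in the sources used here. Of 14647 rows, symbols in more than 1 row (64) were summed and Metazoa_SRP, no gene, was left out (at most 0.00861% of a library). Chi-square per degree of freedom was at least 8.02 in all 21 pairs of libraries, so none was a copy.

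The test was edgeR 4.0.16 in R 4.3.3 (filterByExpr, TMM, robust quasi-likelihood F-test) with Benjamini-Hochberg adjustment over all genes and a threshold of 0.05, and was tested on simulated data. A standard error is the size of the log2 fold change over the root of its F statistic, and log-CPM used a prior count of 2. Groups and replicate numbers came from sample titles, and the groups share no number. Alternatives used RLE factors, library totals, EIF4A2 left out, no filter, a floor of 10 on the mean CPM, limma 3.58.1 voom with and without library quality weights, DESeq2 1.42.0, each library left out, doxorubicin library 3 alone and a GC correction. Gene positions and GC content (longest coding transcript) are from GENCODE 29, promoters from RefSeq.

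The genes, their lists and the tests were chosen with earlier results of these data known. Levels per library are given for the 12 listed genes with the lowest p and for 9 others fixed by name (PCNA, MCM2, MCM7, CDC6, CDT1, GMNN, RRM2, TYMS and TK1), and those of other genes where a role is described, chosen after their values were seen. Of the further genes, the 6 with the lowest p are named, and PCLAF for its older symbol.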

Additional observations from a re-analysis of the deposited data

Results flagged for a closer look

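The levels in the 4 stretch libraries were looked at in 50 sets (the 43 genes, 6 further genes and the summed level). In 6 sets 1 library was far from the other 3 by Dixon's ratio of gap to range. Chance gives about 1 in 20 for independent sets. These sets share the same libraries, so the count is a description and no test. All 6 were stretch library 4, and all were high. CDT1 stood at 23.9 CPM there against 14.8 to 15.6 CPM in the other stretch libraries, and CDC45 at 14.4 against 7.70 to 8.82 CPM. MCM10 stood at 45.5 against 17.8 to 21.8 CPM, and GINS4 at 17.0 against 4.43 to 5.88 CPM. LIG1 stood at 114 against 30.7 to 42.1 CPM, and E2F2 at 1.74 against 0.108 to 0.216 CPM. The cause was not tested.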

How the results depend on the processing

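The count of 0 replication genes past the threshold held in 15 of 17 alternatives. The exceptions were voom with library quality weights, with 13, and leaving out doxorubicin library 3, with 12, so that leaving out single libraries gave 0 to 12. For all genes, leaving out single libraries gave 12 to 3736 calls, library totals alone 13, a mean of at least 10 CPM 136, doxorubicin library 3 alone 99, DESeq2 1315 and quality weights 5276. For the 50 further genes the count was 0 to 20 without single libraries, and the 20 came without doxorubicin library 3. It was 0 with library totals, a mean of at least 10 CPM or limma-voom. It was 2 with the GC correction, 7 with DESeq2 and 24 with quality weights. Of all tested genes, 32.16% were called without doxorubicin library 3 and 3.57% with the GC correction. DESeq2 called 10.03% of all genes it tested, and quality weights 46.98%. The median of the 43 was -0.13 to 0.75 without single libraries (lowest without doxorubicin library 1) and 0.66 with library totals.

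Of 17 genes followed singly, none past the threshold, some changed side. With library totals RPA1, TYMS, GINS2 and MCM4 had log2 fold changes of 0.0822, 0.36, 0.15 and 0.37, and with quality weights GINS2, GMNN and RRM2 had 0.34, 0.83 and 0.37. With doxorubicin library 3 alone RPA1, TYMS, GINS3, PCNA, CDC45, MCM2, MCM7 and CDC6 had 0.33, 0.0595, -0.0759, -0.15, -0.0757, -0.29, -0.18 and -0.996. Without single libraries the ranges were -0.0741 to 0.75 for MCM2, -0.27 to 2.51 for CDC6, -1.15 to 1.44 for GMNN, -0.89 to 1.10 for RRM2 and -0.0587 to 0.73 for MCM7, each highest without doxorubicin library 3. The cause was not tested. In doxorubicin library 2, 5 genes stood at 0 counts, and a level of 3 counts there was 2.59 CPM with TMM scaling. The lowest stretch levels of ORC4, RFC5 and POLE2, at 1.39, 1.93 and 1.498 CPM, lie below that, so depth limits these genes. Those of CDC6 and GINS3, at 7.28 and 7.64 CPM, lie above it.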

Other observations

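The 5 tested genes whose log-CPM followed PCNA most closely over the 7 libraries were FAM50A, CENPW, UMPS, PSIP1 and PSMD12, with Pearson correlations of 0.995 to 0.996, and none of them was among the 43. Over the other 42 replication genes the median correlation with PCNA was 0.67, beside 0.26 over 11229 genes, with RFC4 and CDC6 highest at 0.986 and 0.985 and RPA1 lowest at -0.966. These values describe 7 libraries of unlike depth in which doxorubicin libraries 1 and 2 stand apart, and were not tested.

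The 19 replication genes of the table with an E2F match and the 19 with a promoter but no match had median log2 fold changes of 0.14 and 0.06. Doxorubicin library 3 lay above the stretch range for 11 of the former and 6 of the latter, and doxorubicin library 1 below it for 13 and 14. The difference between these sets was not tested.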
